A study of Mus musculus with 22 samples.

Results

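A set of 4 metabotropic and 5 kainate receptor genes for glutamate were followed in lumbar spinal cord of mice with knee joint pain, chosen by gene symbol: Grm3, Grm5, Grm7, Grm8, Grik1, Grik2, Grik3, Grik4 and Grik5. They are 9 of the 17306 genes in the table of expression values, and all 9 were among the 16765 genes tested. No member was chosen by its values.

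All 22 mice were wildtype C57BL6J, were 12 to 14 weeks old when tissue was taken, and received 1 mg of sodium iodoacetate (MIA), which damages the knee joint and causes lasting pain. SAFit2, an inhibitor of FKBP51 (a chaperone partner of the glucocorticoid receptor, encoded by Fkbp5), was given at 100 mg/kg in a vesicular phospholipid gel (VPG), a depot that releases it slowly, and Vehicle mice received the gel alone. The 5 Early SAFit2 and 6 Early Vehicle mice were injected on days -3 and 4 relative to MIA, and the 5 Late SAFit2 and 6 Late Vehicle mice on days 20 and 27. The early days follow the series design text; the treatment protocol of the samples gives days 3 and 4, both after MIA. RNA of the L4-L6 cord was collected on day 30 and sequenced. Per the paper it came from the dorsal horn quadrants on the side of the injected knee, not the whole cord. The paper describes the mice of this early and late experiment as male. The sample titles of the 5 Early SAFit2 mice read SAFit1, and the treatment label, SAFit2, was followed. Early and Late are also the labels of the batch, so the timing of the injections and the batch cannot be told apart. All groups carry MIA, so no value here is relative to an uninjured joint. Each sample is bulk tissue, in which fewer cells of a type and less RNA per cell cannot be told apart.

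Glutamate, the main excitatory transmitter of the cord, acts on ion channels and on metabotropic receptors, which signal through G proteins. Group I metabotropic receptors, among them mGlu5 (from Grm5), couple to Gq and phospholipase C and raise the excitability of dorsal horn neurons. Group II (mGlu2 and mGlu3) and group III (mGlu4, mGlu6, mGlu7 and mGlu8) couple to Gi/o, lower cyclic AMP and often sit on nerve terminals, where they limit release; mGlu3 is also made by astrocytes. Kainate receptors are tetrameric ion channels. The subunits GluK1, GluK2 and GluK3 (Grik1, Grik2 and Grik3) form channels alone, while GluK4 and GluK5 (Grik4 and Grik5) bind glutamate with high affinity and need one of the former to make a working channel.

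The genes lie on 7 chromosomes of GRCm38 (mm10): Grm3 at chr5:9485541-9725170, Grm5 at chr7:87584168-88134907, Grm7 at chr6:110645581-111567230, Grm8 at chr6:27275119-28135178, Grik1 at chr16:87895900-88290265, Grik2 at chr10:49094833-49788766, Grik3 at chr4:125490700-125714173, Grik4 at chr9:42518135-42944493 and Grik5 at chr7:25009849-25072346. Grik5 is the most compact, at 62.5 kb, and Grm7 spans 921.6 kb. Exons of 6 members overlap no other annotated exon. In the other 3, at most 2.21% of the exonic bases do, with an antisense RNA in Grm7 and small RNAs in Grm8 and Grik4, and none of those RNAs has a row in the table.

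The members differ in base composition, which is given here because the late differences are set beside it below. In their longest protein-coding transcripts GC content was 37.9% for Grik2, 42.5% for Grm5, 45.9% for Grm8, 47.6% for Grm3, 47.8% for Grm7, 47.9% for Grik1, 52.2% for Grik4, 54.2% for Grik3 and 62.3% for Grik5, against a median of 50.1% over genes. The difference is visible where the protein is the same. The longest run of residues that all 5 kainate subunits share is 19 residues within the pore-lining helix of the channel, each in 1 exon: exon 13 of Grik1 (chr16:87936000-87936056, minus strand), exon 14 of Grik2 (chr10:49240681-49240737, minus), exon 13 of Grik3 (chr4:125694021-125694077, plus), exon 17 of Grik4 (chr9:42543860-42543916, minus) and exon 16 of Grik5 (chr7:25015910-25015966, minus). Its 57 coding bases are shown 5′ to 3′ from GENCODE transcripts, with G and C in capitals.
Grik1: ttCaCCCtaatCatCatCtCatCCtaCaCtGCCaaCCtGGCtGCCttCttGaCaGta
Grik2: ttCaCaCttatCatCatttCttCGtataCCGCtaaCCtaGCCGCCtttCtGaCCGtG
Grik3: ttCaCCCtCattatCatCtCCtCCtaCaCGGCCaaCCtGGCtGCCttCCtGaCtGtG
Grik4: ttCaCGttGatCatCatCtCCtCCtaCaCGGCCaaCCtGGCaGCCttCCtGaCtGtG
Grik5: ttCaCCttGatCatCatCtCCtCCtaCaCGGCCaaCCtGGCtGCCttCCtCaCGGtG
Of the 57 bases, 26 were G or C in Grik2, 27 in Grik1, 31 in Grik3, 31 in Grik4 and 32 in Grik5. At the last base of the 19 codons, where a change often leaves the residue as it is, the counts were 11, 13, 16, 17 and 18 in the same order of genes. Over the whole coding sequence, GC at this codon position ran from 49.0% in Grik2 to 80.4% in Grik5.

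Libraries held 11352989 to 24433349 reads on genes (median 17732341), and every member had at least 121 reads in every library. Neuronal, glial and endothelial marker genes were all present. In the late groups some library features moved with treatment. The summed CPM (reads scaled to library size) of 7 neuronal markers, 7 of 7 in the table and none at 0 reads, was 6540 to 7020 in Late SAFit2 and 5460 to 6480 in Late Vehicle. Its genes did not move alike: Map2 was called higher (0.52), Snap25 was at 0.37, and Tubb3 (-0.51), Eno2 (-0.25) and Rbfox3 (-0.23) stood on the other side. Of 8 markers of dorsal horn neurons 7 had negative late differences, with a median of -0.33, and Prrxl1 was called lower (-0.79). Their summed CPM overlapped, at 103 to 151 in Late SAFit2 and 109 to 158 in Late Vehicle. In the early comparison 1 of these 8 was higher, with a median of -0.19. The summed CPM of 4 ependymal markers was 16.0 to 32.1 in Late SAFit2 and 22.9 to 50.5 in Late Vehicle. Their median difference was -0.67 in the late comparison and -1.65 in the early one, where 3 were nominally lower and none was called. Of these, Tmem212 was at 0 reads in 6 of 22 libraries. In Late SAFit2 and Late Vehicle, in this order, the neuronal RNA Bc1 took 3.31 to 16.5% and 1.32 to 7.55% of reads. Summed CPM of 3 skeletal muscle markers was 1.27 to 106 (median 2.37) and 1.11 to 2.24 (median 1.7), with Ckm and Myh4 at 0 reads in some libraries. For 3 sensory ganglion and Schwann cell markers it was 129 to 3940 and 751 to 1700. Reads on genes ran from 11352989 to 20242724 and from 13862129 to 23197524. The slope of log2 CPM on GC content across genes, per 10 percentage points and relative to the mean of all libraries, was -0.49 to -0.05 in Late SAFit2 and -0.33 to 0.50 in Late Vehicle. Their part in the results below was not tested, except that the GC trend was removed as an alternative.

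Levels were compared between members only as CPM per kilobase of the longest protein-coding transcript. Grm5 had the highest mean level, 18.9 ± 5.34 CPM per kilobase (SD, n = 22), followed by Grik5 at 15.5 ± 5.72, Grm7 at 12.5 ± 2.12 and Grm3 at 10.0 ± 1.64. The other 5 formed a lower tier. Grik1 stood at 4.38 ± 0.826, Grik4 at 3.47 ± 0.805, Grm8 at 3.43 ± 0.774, Grik3 at 2.98 ± 0.758 and Grik2 at 2.97 ± 0.679. Grm3 was above Grik1 in 22 of 22 libraries, and Grm7 above Grm3 in 21, whereas other neighbours in the order crossed: Grm5 exceeded Grik5 in 13 of 22 libraries, Grik4 exceeded Grm8 in 12, and Grik3 exceeded Grik2 in 11. With all annotated exons as the length, a choice made after seeing the data, Grm8 fell to the last place at 1.34 CPM per kilobase and Grm3 (10.0) passed Grm7 (8.94), while the split into 4 higher and 5 lower genes was as before.

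**Figure D1:**
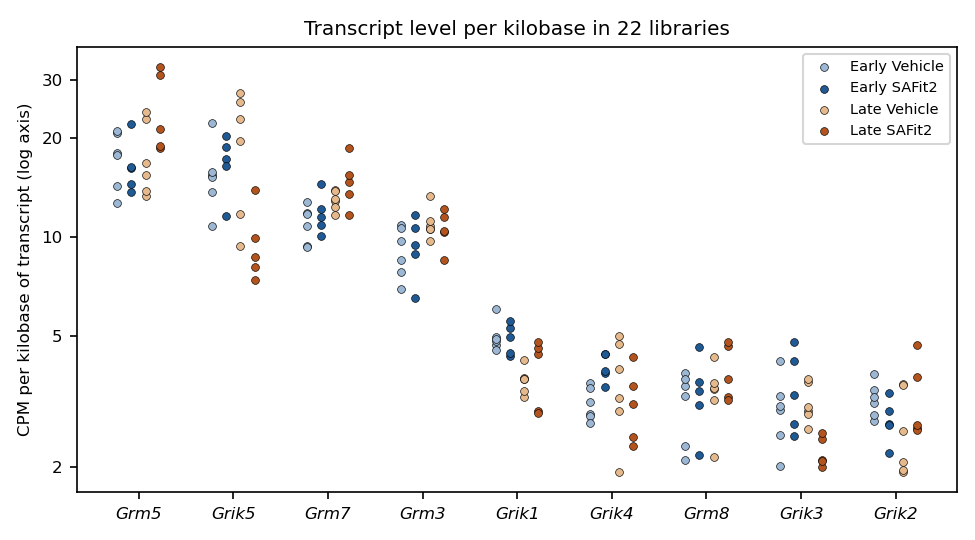
CPM per kilobase of transcript (log axis) of each member in 22 libraries, coloured by group, with the genes ordered by their mean. Grm5, Grik5, Grm7 and Grm3 lie above the other 5 genes, and of the 5 Grik5 points below 10, 4 are Late SAFit2 mice and 1 is a Late Vehicle mouse.

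The late comparison asked what SAFit2 given once the pain state was established changed. One of the 9 members was called (Benjamini-Hochberg adjusted p under 0.05 over all genes and at least a 1.2-fold change, limma): Grik5 was lower in Late SAFit2. Over all genes tested 12.1% were called and 6.72% were called lower, so 1 of 9 is a share near the background. At a nominal p under 0.05 stood 3 members (Grik5, Grik3 and Grm5), against 34.5% of all genes. The median log2 difference was 0.07 over the members and -0.05 over all genes.

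**Figure D2:**
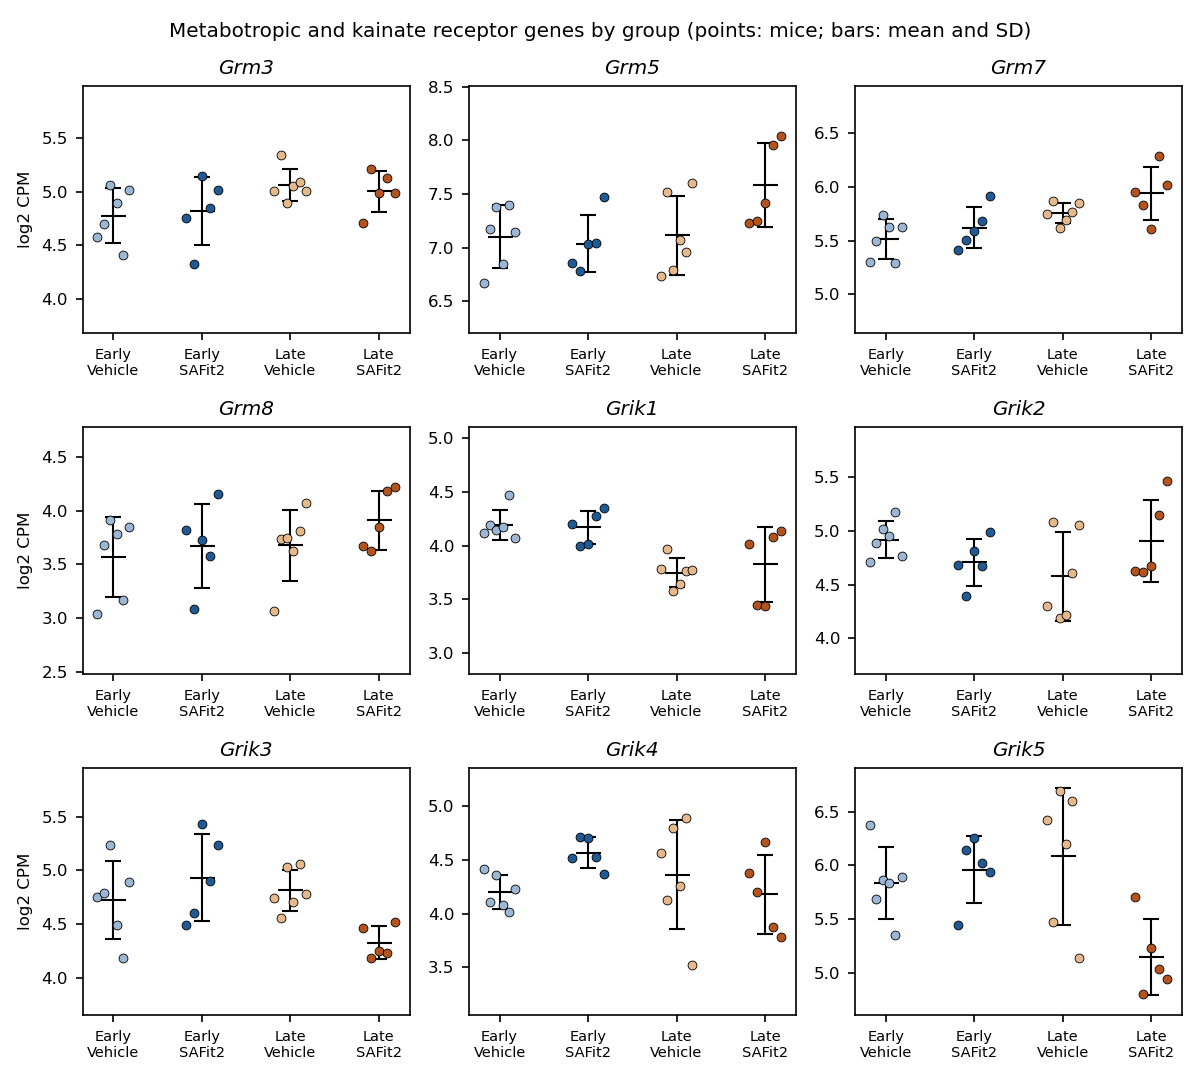
log2 CPM of the 9 genes, with a point for each mouse, the mean as a bar and the SD as whiskers, each panel with its own axis. In the Grik3 panel the 5 Late SAFit2 mice (4.18 to 4.52) lie below all 6 Late Vehicle mice (4.56 to 5.06), and in the Grik1 panel the 6 Late Vehicle mice (3.58 to 3.97) lie below all 6 Early Vehicle mice (4.07 to 4.47). Of all genes, 1.71% had no overlap between the late groups, and this share was not counted for the Vehicle groups.

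Grik5, the high-affinity partner subunit, stood at log2 CPM of 5.71, 4.80, 5.23, 5.04 and 4.94 in the 5 Late SAFit2 mice. In the 6 Late Vehicle mice it ran from 5.14 to 6.69 with a median of 6.31. All 5 Late SAFit2 mice were below the Late Vehicle mean of 6.09, but the groups overlapped, since 2 Late Vehicle mice (5.14 and 5.47) were within the treated range. The difference was -0.94 (SE 0.23, 95% confidence interval -1.42 to -0.46, limma adjusted p = 0.032), or 1.92-fold lower, and a two-sided exact permutation test over the 11 mice gave p = 0.028. The call was lost when any of 7 late libraries was left out (Late Vehicle 1, 3, 4 and 5 and Late SAFit2 2, 4 and 5), with differences of -0.92 to -0.82 and adjusted p of 0.058 to 0.10. It was also lost in a fit of the 11 late mice alone (adjusted p = 0.069).

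The other partner subunit, Grik4, had a late difference of -0.18 (SE 0.19, limma adjusted p = 0.53). Its Late Vehicle mice were the most spread of its groups, from 3.52 to 4.89, and contained the Late SAFit2 mice, at 3.78 to 4.67.

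Among the subunits that form channels alone, Grik3 stood at 4.46, 4.18, 4.25, 4.23 and 4.52 in Late SAFit2 and at 4.56 to 5.06 (median 4.76) in Late Vehicle. These groups did not overlap, which held for 1.71% of all genes. The difference of -0.49 (SE 0.17, 95% confidence interval -0.84 to -0.14) missed the threshold, with a limma adjusted p of 0.056, and the exact permutation test gave p = 0.0043, where 0.0022 is the smallest value these group sizes allow. It passed with an adjusted p of 0.035 to 0.050 when Late Vehicle 2 or 6, Late SAFit2 1, Early SAFit2 1 or Early Vehicle 5 was left out. Grik2 went the other way without passing, at 0.33 (SE 0.18, limma adjusted p = 0.19). Its values were 4.63, 4.62, 4.67, 5.15 and 5.47 in Late SAFit2 and 4.19 to 5.08 (median 4.46) in Late Vehicle, so that 2 treated mice stood above every control. Grik1 had a difference of 0.07 (SE 0.14, limma adjusted p = 0.74), with an interval of -0.22 to 0.37.

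Of the metabotropic members, Grm5 was the one past a nominal threshold. Its Late SAFit2 mice stood at 7.23, 7.25, 7.42, 7.96 and 8.04, and its Late Vehicle mice at 6.74 to 7.60 with a median of 7.02. Every treated mouse was above the Late Vehicle mean of 7.11, and 2 were above every control. The difference was 0.47 (SE 0.18, 95% confidence interval 0.10 to 0.84), 1.38-fold, with a limma adjusted p of 0.074 and p = 0.076 in the exact permutation test. It passed, at adjusted p of 0.020 to 0.040, without Late SAFit2 1, Late Vehicle 2 or Late Vehicle 6.

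The group III members (Grm7 and Grm8) and the group II member (Grm3) gave no call in the late comparison. Grm7 differed by 0.18 (SE 0.12, limma adjusted p = 0.28), Grm8 by 0.23 (SE 0.20, adjusted p = 0.44) and Grm3 by -0.06 (SE 0.14, adjusted p = 0.79). Their 95% confidence intervals, -0.06 to 0.42, -0.19 to 0.65 and -0.35 to 0.23, leave room for changes beyond 1.2-fold in at least one direction.

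**Figure D3:**
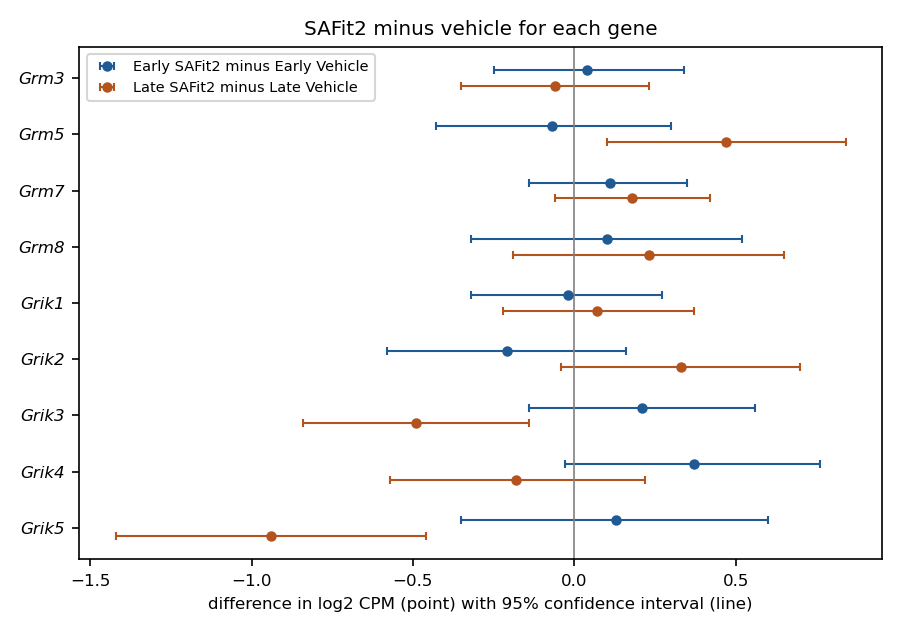
Difference in log2 CPM between SAFit2 and Vehicle mice for each gene (point) with its 95% confidence interval (line), early in blue and late in orange. The late intervals of Grik5 (-1.42 to -0.46), Grik3 (-0.84 to -0.14) and Grm5 (0.10 to 0.84) exclude 0, and each early interval includes it.

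The size and sign of the late differences ran with transcript GC content. The 3 members of highest GC content (Grik5, Grik3 and Grik4) had differences of -0.94, -0.49 and -0.18, and the 3 of lowest (Grik2, Grm5 and Grm8) had 0.33, 0.47 and 0.23. Over all genes the differences fell in the same order. When the 16213 tested genes with a transcript were split by GC content into 10 bins of equal size, the median late difference went from 0.42 in the lowest bin to -0.58 in the highest. With the trend on GC content and length removed in each library, the late difference was -0.32 for Grik5 (SE 0.09, limma adjusted p = 0.15), -0.23 for Grik3 (adjusted p = 0.42) and 0.16 for Grm5 (adjusted p = 0.58), and no member or other gene was called. The exact permutation test on the adjusted values gave p = 0.019 for Grik5, 0.071 for Grik3 and 0.31 for Grm5. By its construction this step also takes away any treatment effect that itself follows GC content, so the 2 cannot be told apart here.

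**Figure D4:**
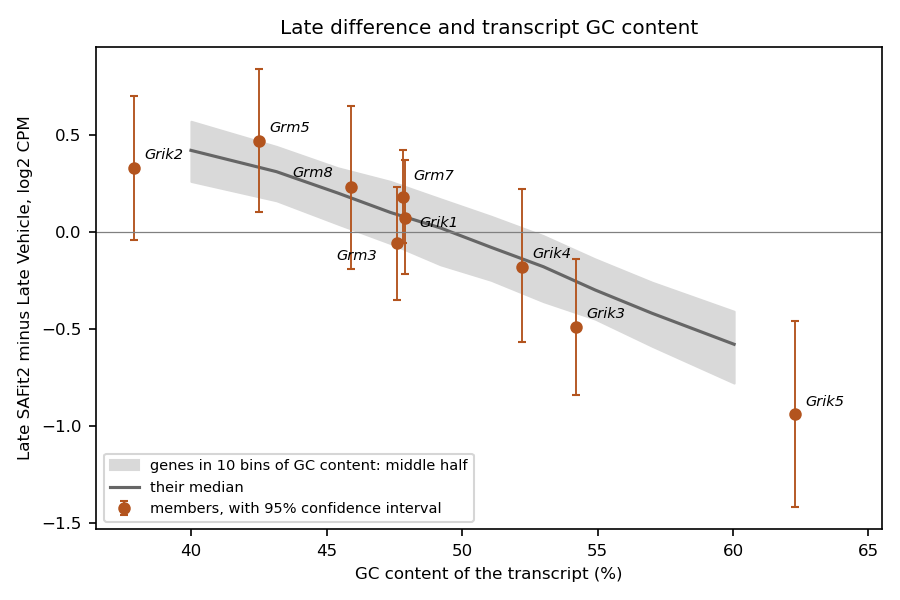
Late difference in log2 CPM of each member (orange points with 95% confidence intervals) against the GC content of its transcript, over the median (line) and the middle 50% (grey) of all tested genes in 10 bins of GC content. The members run downwards with the line for all genes, from Grik2 at 37.9% GC to Grik5 at 62.3%. Grik3 (-0.49) lies below the grey band, Grm5 (0.47) at its upper edge, and Grik5 (-0.94) to the right of its end and below it.

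**Figure D5:**
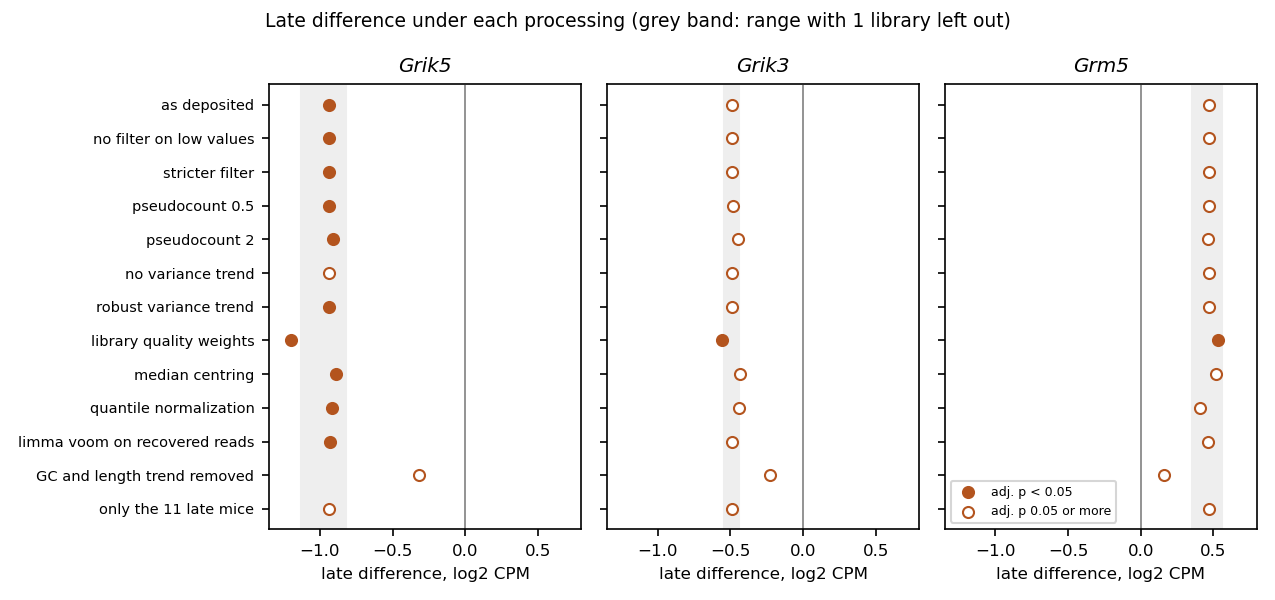
Late difference in log2 CPM of Grik5, Grik3 and Grm5 under each way of processing except those with the replicate as a block (filled: adjusted p under 0.05). The range found on leaving out 1 library is in grey. Removal of the trend on GC content and length moves all 3 values towards 0 (to -0.32, -0.23 and 0.16), and the other settings shown leave them between -1.20 and -0.89, -0.56 and -0.43, and 0.41 and 0.53.

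The early comparison asked what SAFit2 given around the onset of pain had left in the cord by day 30. None of the 9 members was called, where 0% of all genes were, and none was at a nominal p under 0.05 in limma, where 2.48% of all genes were. The lowest adjusted p over all genes was 0.67. Grik4 had the largest difference, 0.37 (SE 0.19, 95% confidence interval -0.03 to 0.76, limma adjusted p = 1.0). Its Early SAFit2 mice stood at 4.52, 4.71, 4.70, 4.53 and 4.37 and its Early Vehicle mice at 4.01 to 4.41 (median 4.17), so that 4 of 5 treated mice were above every control. The exact permutation test of these 11 values, which uses the spread of this gene alone, gave p = 0.0087. Grik2 was on the other side at -0.21 (SE 0.18), with 4.39 to 4.99 in Early SAFit2 and 4.71 to 5.18 in Early Vehicle. With the GC and length trend removed, Grik4 was at 0.30 (exact permutation p = 0.0043) and Grik2 at -0.25 (p = 0.0022, the smallest value allowed), and neither was called in limma. In the other 7 members this permutation p was 0.39 to 0.98. The share of all genes at such low permutation values was not counted. The other 7 members had early differences of -0.07 to 0.21.

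Pooled over both timings, 1 of the 9 members had a nominal p under 0.05, where 13.2% of all genes did and none had an adjusted p under 0.05 (lowest 0.30). It was Grik5, at -0.41 (SE 0.16, limma nominal p = 0.020, adjusted p = 0.35, permutation p = 0.080 within timing over 213444 assignments). That value joins an early difference of 0.13 with a late one of -0.94.

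The difference between the early and the late effect was then tested. No member was called, as for 0% of all genes (lowest adjusted p 0.12), and 4 members were at a nominal p under 0.05, where 24.9% of all genes were. The early effect exceeded the late one by 1.07 for Grik5 (SE 0.33, limma adjusted p = 0.12) and by 0.69 for Grik3 (SE 0.24, adjusted p = 0.12). It was below the late one by 0.54 for Grik2 and 0.53 for Grm5, at log2 differences of -0.54 (adjusted p = 0.18) and -0.53 (adjusted p = 0.19). Exact permutation of treatment within timing gave p = 0.019 for Grik5, 0.015 for Grik3, 0.054 for Grik2 and 0.084 for Grm5. After removal of the GC and length trend the values were 0.32 for Grik5, 0.36 for Grik3, -0.17 for Grik2 and -0.26 for Grm5. Exact permutation within timing then gave p = 0.036 for Grik5, 0.064 for Grik3, 0.37 for Grik2 and 0.19 for Grm5. Without Late Vehicle 6, Grik5 (1.26, adjusted p = 0.023) and Grik4 (0.71, adjusted p = 0.039) passed, in a fit that called 2513 of 16765 genes.

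The 2 Vehicle groups, which differ in the days of gel injection and in batch, were compared to show how far the controls stood apart. Grik1 was lower in Late Vehicle, and was the 1 of 9 members called, where 9.11% of all genes were. It ran from 3.58 to 3.97 (median 3.77) in Late Vehicle and from 4.07 to 4.47 (median 4.16) in Early Vehicle. These groups did not overlap, but the share of all genes for which that held was not counted for this comparison. The difference was -0.44 (SE 0.14, 95% confidence interval -0.72 to -0.16, limma adjusted p = 0.039), 1.36-fold lower, and the exact permutation test gave p = 0.0022, the smallest it can give. At a transcript GC content of 47.9%, the value with the GC and length trend removed was -0.43 (adjusted p = 0.015), while median centring (-0.38, adjusted p = 0.079) and quantile normalization (-0.38, adjusted p = 0.10) lost the call for Grik1. It was lost on leaving out any of 8 Vehicle libraries (1, 2, 3 or 5 of Early Vehicle and 1, 3, 4 or 5 of Late Vehicle), with values of -0.46 to -0.39 and adjusted p of 0.051 to 0.099. In the treated groups Grik1 stood at 4.00 to 4.35 in Early SAFit2 and 3.44 to 4.14 in Late SAFit2. Grm3 (0.29, SE 0.14, adjusted p = 0.19) and Grm7 (0.24, SE 0.11, adjusted p = 0.18) were higher in 6 of 6 Late Vehicle mice than the Early Vehicle mean, and neither passed. Between these groups, 6 of 14 genes of glutamate transport and metabolism were called higher in Late Vehicle, Slc1a2 (the main astrocyte glutamate transporter) by 0.46 and Glul (glutamine synthetase) by 0.44 among them. These 2 genes were chosen after their values were seen.

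The makeup of the kainate family by CPM per kilobase followed the single genes. Grik5 made up 57.8 ± 10.1% of the summed level of the 5 subunits in Late Vehicle (SD, n = 6) and 42.8 ± 5.90% in Late SAFit2 (n = 5). In Early Vehicle and Early SAFit2 its share was 51.3 ± 6.11% and 52.1 ± 4.94%. GluK4 and GluK5 together stood at 68.9 ± 10.8% in Late Vehicle and 57.2 ± 8.11% in Late SAFit2, with ranges of 52.3 to 78.5% and 46.4 to 64.8% that overlap. These shares are descriptions, with the GC content of the genes in them.

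Of the other metabotropic receptor genes, Grm4 (group III) was called lower in the late comparison, at -0.91 (SE 0.29, limma adjusted p = 0.045), with a transcript of 61.7% GC. Its Late SAFit2 mice ran from 2.77 to 3.91 and its Late Vehicle mice from 3.36 to 4.80. Grm2, the partner of Grm3 in group II, stood at 0.811 ± 0.331 CPM per kilobase (SD, n = 22), below each of the 9 members, and differed by -0.84 (SE 0.35, adjusted p = 0.095). Neither was called in the early comparison.

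Signalling partners were read from lists set by function. For group I, 13 of 13 genes of scaffolds and the Gq pathway were tested, and 2 were called higher and 1 lower in Late SAFit2 (12.1% of all genes were called, and 6.72% called lower), with a median difference of -0.01 against -0.05 over all genes. Homer1, which tethers mGlu5 at the synapse, was higher by 0.63 (SE 0.18, adjusted p = 0.036), and Plcb1, a phospholipase C of the pathway, by 0.46 (SE 0.12, adjusted p = 0.034). Ncdn, a binding partner of mGlu5, was lower, at -0.77 (SE 0.22, adjusted p = 0.036). Their GC contents were 36.9%, 44.5% and 59.9%.

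For groups II and III, 3 of 13 partner and Gi/o genes were called higher and 2 lower, against the same 12.1% of all genes, with a median of -0.06. The G protein subunits Gng2 (0.50, SE 0.14, adjusted p = 0.034), Gnai3 (0.44, SE 0.13, adjusted p = 0.036) and Gnai1 (0.40, SE 0.12, adjusted p = 0.038) were higher and have transcripts of 41.7 to 43.8% GC. Pick1, which binds the tail of mGlu7, was lower at -0.51 (SE 0.16, adjusted p = 0.044), with 56.8% GC. Of 8 kainate receptor partners 1 was called lower, where 6.72% of all genes were: Dlg4 (PSD-95, the main scaffold of excitatory synapses), at -0.52 (SE 0.15, adjusted p = 0.037) and 46.8% GC. The auxiliary subunits Neto1 and Neto2 differed by 0.03 (adjusted p = 0.94) and 0.36 (adjusted p = 0.12). Of 14 genes for glutamate transport and metabolism none was called in the late comparison, where 2 had a nominal p under 0.05. In the early comparison none of the genes on these 5 lists was called.

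After the group means were taken away, some members varied together over the 22 libraries. Grm5 and Grik2 moved together (Pearson r = 0.88), as did Grik4 and Grik5 (r = 0.79), and these pairs moved against each other, with r of -0.72 for Grm5 and Grik4 and -0.65 for Grik2 and Grik5. Grik3 did not follow either pair alone, with r of 0.47 for Grik5, 0.11 for Grm5 and 0.47 for Grm3, and Grm3 had r of 0.61 with Grm8 and -0.19 with Grik5. The points share library, depth and base composition, and the first pair is GC-poor and the second GC-rich. Among all genes, the one closest to Grik5 was Slc22a17, a receptor for lipocalin (r = 0.98, Spearman rho 0.97, 62.2% GC), and the one closest to Grm5 was Cacna2d1, a calcium channel subunit bound by gabapentin (r = 0.94, rho 0.92, 40.7% GC). For the others these were Gad2, which makes GABA, for Grm8 (r = 0.90), Camk2d for Grm7 (0.84), Ckap5 for Grm3 (0.87), Slc9b2 for Grik1 (0.83), Pkia for Grik2 (0.90), Arnt2 for Grik3 (0.89) and Atg2a for Grik4 (0.91).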

How the data were processed

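RNA of lumbar cord from 22 mice was sequenced as 75 base pairs from each end with a directional kit. Per the labels and methods, the authors trimmed reads (Trimmomatic), aligned them to mm10 (HISAT2), counted genes with featureCounts and scaled libraries by trimmed mean of M-values (edgeR). Whether strand was used in counting is not given in the sources used here. The deposited values are log2 CPM. From their floor of -3.154 a prior count of 2 was inferred, and 100% of values then came out as whole reads (tolerance 0.02 reads), which gave the depths. Fold changes are on this log2 scale and understate low genes.

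From these values, 4 group means were fitted over all libraries with limma 3.58.1 (variance trend, R 4.3.3) for genes at log2 CPM of -1 or more in at least 5 libraries, with Benjamini-Hochberg adjustment over all of them, as a step tested on simulated data. Called means adjusted p under 0.05 and 1.2-fold; for the pooled effect it means a nominal p under 0.05 alone. Two-sided exact permutation tests enumerated 462 assignments of 5 against 6 mice, 924 of 6 against 6, or 213444 within timing. GC content and length came from the longest protein-coding GENCODE M21 transcript, and their trend was removed per library by loess (span 0.5). Same-numbered mice deviated together in few of 10 pairs (r of -0.236 to 0.317), and replicate numbers were not used as pairs. So few pairs cannot exclude a pairing, and fits with the replicate as a block are given below. P-values measure the spread between these mice. The members, lists and tests were chosen with earlier results of these data known. Named are all 9 members, up to 4 called genes of each list by p in the late comparison, and the gene closest to each member; Grm2, Neto1, Neto2 and 2 glutamate metabolism genes were named outside this rule. Some listed genes are not reported here. Alternatives changed the filter, pseudocount, variance model, weights, scaling, trend removal and libraries.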

Additional observations from a re-analysis of the deposited data

Results flagged for a closer look

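Of 36 groups of values (9 genes in 4 groups), 1 held a mouse far from the others by Dixon's test, and chance gives 1.8: Grik1 in Early Vehicle 5, at a log2 CPM of 4.47, above the other 5 mice at 4.07 to 4.19.

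The effect of SAFit2 on Grik5 differed between the timings by 1.07 on the log2 scale (early 0.13, late -0.94; exact permutation p = 0.019 within timing, limma adjusted p = 0.12 over all genes). For Grik3 the early effect exceeded the late one by 0.69 (early 0.21, late -0.49; exact permutation p = 0.015, adjusted p = 0.12). Neither passed the adjustment, and 5 of 5 Late SAFit2 mice were below the Late Vehicle mean for each gene.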

How the results depend on the processing

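The late count of 1 called member was 0 without a variance trend, 0 with the GC and length trend removed, 0 in the 11 late mice alone and 4 with library quality weights (Grm5, Grik2, Grik3 and Grik5), and 0 to 3 with 1 library left out. Weights also gave 3 members for the pooled effect, 4 for early minus late and 4 between the Vehicle groups, where median centring and quantile normalization gave 0. With 1 library left out these counts ran over 1 to 2, 0 to 2 and 0 to 1. Early counts stayed at 0. Over all genes, 2021 late calls became 1231 with quantile normalization, 876 with voom on recovered reads, 62 without the trend, 6381 with weights, and 0 with the GC trend removed or in the late mice alone, and ran from 1 to 4971 with 1 library left out. The 2215 pooled calls became 1147 with the GC trend removed, and the 1527 between Vehicle groups became 2613. Weights gave 13 early, 6396 pooled, 5082 early-minus-late and 5067 Vehicle calls, and 2 genes were called for early minus late without the trend. At a nominal p under 0.05, removal of the GC trend took 416 early genes to 747, 5791 late genes to 2325 and 4167 early-minus-late genes to 1963. Median centring changed 894 higher and 1127 lower into 1139 and 924, and between the Vehicle groups 552 and 975 into 1198 and 816.

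Replicate numbers correlated at r of -0.236 to 0.317 over 10 pairs, 2 of them over 0.1. With the replicate as a block, 3 members were called late (Grm5, Grik3 and Grik5), 2 pooled, 1 for early minus late (Grik5), and 0 late when the GC trend was also removed; over all genes it gave 4219 late and 1785 early-minus-late calls.

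Signs turned only for uncalled values. With the GC trend removed these were, without and with the replicate block, -0.03 and -0.05 for late Grik1, -0.08 and -0.07 for late Grik2, -0.03 and -0.05 for pooled Grik1, -0.17 and -0.17 for pooled Grik2, 0.01 and 0.03 for early minus late Grm7, 0.08 and 0.10 for Grm8, and 0.01 for Grik1 without the block. Weights gave -0.02 for late Grik1, -0.03 and 0.08 for early Grm8 and Grik1, 0.10 for early minus late Grik1, and -0.22, -0.14 and -0.04 for Grm5, Grm8 and Grik3 between the Vehicle groups. Median centring gave 0.02 and the block 0.01 for pooled Grm3, and quantile normalization -0.11 for Grm5 between Vehicle groups. Leaving out 1 library spread late Grm3 over -0.11 to 0.01, late Grik1 over -0.00 to 0.17, early Grm3 over -0.04 to 0.17, early Grm8 over -0.02 to 0.25, early Grik1 over -0.07 to 0.03, pooled Grm3, Grik1 and Grik2 over -0.05 to 0.05, -0.01 to 0.07 and -0.01 to 0.11, early minus late Grm7 and Grm8 over -0.15 to 0.01 and -0.25 to 0.02, and Grm5, Grm8 and Grik3 between Vehicle groups over -0.08 to 0.09, -0.00 to 0.23 and -0.02 to 0.19. Beyond the settings named, the causes were not tested. Depth was over 100 reads for each gene in each library, and the groups held 5 or 6 mice.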
